A study of Caenorhabditis elegans with 27 samples.

Results

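Young adult Caenorhabditis elegans kept with 0.2 mM HuminFeed were compared with untreated worms of the same experiment, 3 days after first-stage larvae had been set out. HuminFeed (HF) is a commercial humic substance preparation, and its dose is given as mM dissolved organic carbon. The comparison rests on 6 of the 27 arrays of the series, 3 labelled HF 3d_0.2 and 3 labelled HF 3d control, which were fitted by themselves. RNA came from whole animals of strain GE24, so that treated and control worms alike had the genotype pha-1(e2123), a temperature-sensitive allele. Parent worms had been kept at 15 °C on plates with or without the preparation, their first-stage larvae were collected through a 10 µm membrane, and 15000 larvae were raised at 25 °C with or without 0.2 mM HF, so that the treated worms descended from parents kept with the preparation. The age tag of these arrays reads L4 larvae, whereas the growth protocol describes young adults at 3 days. Each condition was cultivated in triplicate, and the labels do not say that the triplicates were separate populations, so the p-values measure only the spread between these arrays. For dose and age, the arrays with 2.0 mM HF at 3 days and the arrays with 0 and 0.2 mM HF at 11 days were also used, with 3 arrays each.

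Humic substances are the brown, poorly degradable remains of plant and microbial matter in soil and water, and small animals take them up with their food. An adult hermaphrodite worm devotes a large part of its body to the germ line, in which stem cells divide, enter meiosis and form first sperm and then oocytes, and which holds the machinery of chromosome segregation, small RNA silencing and maternal RNA loading. The intestine digests bacteria, stores fat, makes yolk and secretes lysozymes, lectins and saposin-like proteins, and together with the skin and muscle it makes up most of the rest. pha-1 mutant embryos fail in pharynx development at the restrictive temperature.

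A value here is a log2 expression value of an Affymetrix probe set, deposited by the authors after GCRMA, a method that corrects background, normalizes the arrays and summarises the probes. Of 22625 probe sets 77 were array controls. Of the other 22548, 9299 (41.2%) had a log2 value over 5 in at least 3 of the 6 arrays and were tested, and 13249 were not. The tested ones stood for 7141 genes. Correlations between arrays over the tested probe sets were 0.995 to 0.9978 within a group and 0.9686 to 0.971 between groups. The 14 hybridisation controls bioB, bioC and bioD, which are added to every sample after labelling, had mean values of 8.79, 8.79 and 8.61 in the controls and 8.96, 9.24 and 9.23 in the treated arrays, 0.42 higher on average with a range of 0.14 to 0.59, while the 4 cre controls differed by 0.04. Of the called rises 1585 were larger than the mean difference of the bio controls and 865 larger than its largest. The 5′ minus 3′ difference of the actin control was -1.70, -1.69 and -1.49 in the controls and -1.39, -1.5 and -1.32 in the treated arrays, and that of catalase was -2.29, -2.21 and -2.05 against -2.48, -2.36 and -2.73. The part of these technical differences in the results was not tested.

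The response was broad and shallow. At a Benjamini-Hochberg adjusted p under 0.05 in limma, 2939 probe sets rose (31.6%) and 3591 fell (38.6%), so that 70.2% of those tested were called. The median size of a called change was 0.46 on the log2 scale, and 15.6% of the called probe sets had changed by less than 1.2-fold. Only 151 rose and 86 fell by 2-fold or more, and 3 rose and 3 fell by 4-fold or more. Treated arrays lay entirely above the controls for 33.5% of the tested probe sets and entirely below them for 41.7%, 75.3% in all. Counted once per gene, by the probe set of the highest mean, 2425 genes rose (34.0%) and 2619 fell (36.7%), 70.6% in all, and the gene list counts below are read against these shares. Tested for a change beyond 1.5-fold, 281 probe sets rose (3.02%) and 215 fell (2.31%), 5.33% in all. Per gene these were 226 (3.16%) and 156 (2.18%), together 5.35%, and the treated arrays lay above all controls for 36.1% of genes and below them for 39.8%, together 75.9%. The count of probe sets beyond 1.5-fold was smaller when most of the arrays were left out singly, whichever group they came from. It was 158 up and 109 down without control replicate 2, and the falls numbered 128 without control replicate 1, 119 without control replicate 3 and 115 without treated replicate 1. Without treated replicate 3 it was 272 up and 231 down. The balance of rises and falls depended on where the arrays were centred. Centring on the median of the tested probe sets, an alternative chosen after seeing the data, moved the median change from -0.047 to 0.066 and gave 3785 rises and 2764 falls. Gene lists whose median change lay near 0, such as ribosomal proteins, histones, translation factors, yolk proteins, neurons and ABC transporters, changed the sign of that median between scalings. Below, a change is a log2 difference, treated minus control, with its SE after ±, and genes that are said to have risen or fallen had an adjusted p under 0.05.

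**Figure D1:**
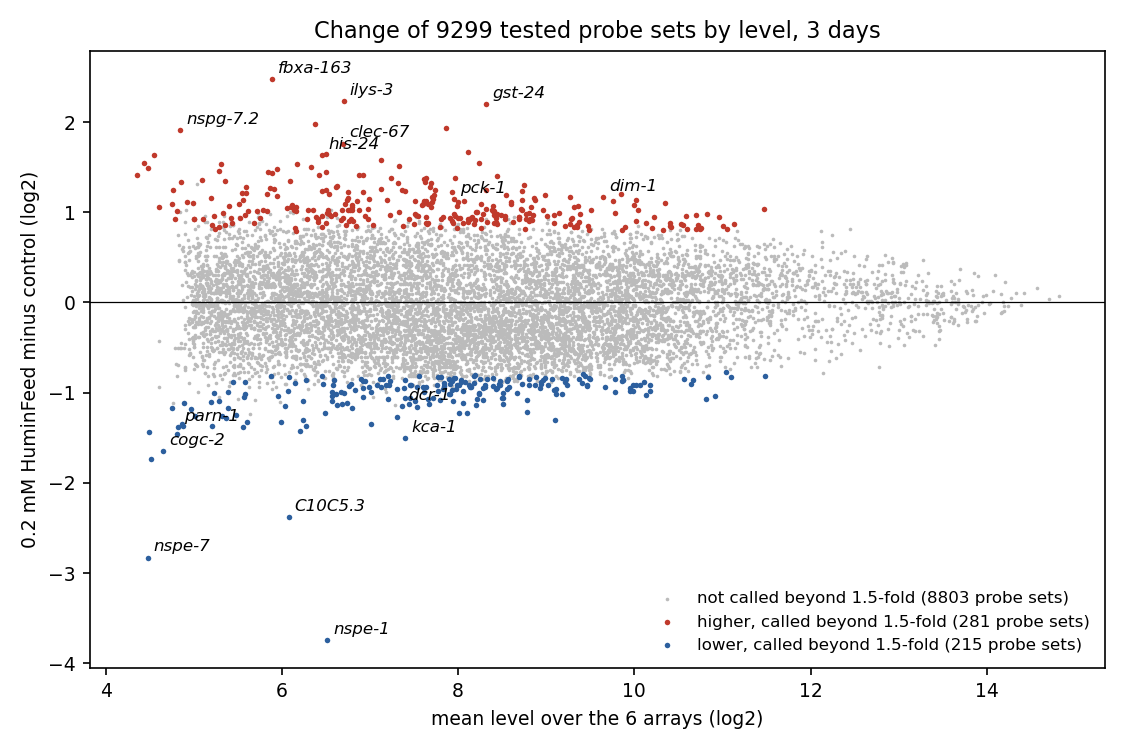
Each point is a tested probe set, with its mean log2 value over the 6 arrays on the horizontal axis and its log2 change, treated minus control, on the vertical axis; colours mark the 281 rises and 215 falls called beyond 1.5-fold. nspe-1 and nspe-7 lie lowest and fbxa-163 highest among the labelled genes, and most points lie close to 0.

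Genes with the largest rises included parts of protein turnover, digestion, detoxification and lipid handling. The F-box gene fbxa-163, of the family that recognises substrates for ubiquitin ligases, had log2 values of 4.51, 4.64 and 4.77 in the controls and 7.11, 7.10 and 7.17 in the treated worms. That is 5.6-fold higher (log2 change 2.48 ± 0.07 SE, n = 3 per group, limma adjusted p = 3.9e-06), and the groups lay far apart. Values of ilys-3, which encodes an invertebrate-type lysozyme of the intestine, were 5.41, 5.62 and 5.73 in the controls and 7.89, 7.76 and 7.79 in the treated worms, a 4.68-fold rise (adjusted p = 9.4e-06). The glutathione S-transferase gene gst-24 had 7.12, 7.20 and 7.35 in the controls and 9.41, 9.38 and 9.49 in the treated worms, a 4.6-fold rise. In each of these genes every treated array exceeded every control. The next in order were sdz-24, a transcript first found in embryos as dependent on the transcription factor SKN-1 (1.98 ± 0.10), F09C8.1 (1.93 ± 0.05, with 1.58 ± 0.05 in its second probe set) and nspg-7.2 (1.91 ± 0.10), of a family of short nematode-specific peptides. For nspg-7.2 the control values of 3.75, 3.89 and 4.02 lay below the threshold of the filter and the treated values of 5.65, 5.78 and 5.98 above it, so that it, like fbxa-163, was tested only because it was higher with HF. The whole table had 103 such probe sets, and 80 that were tested only through the controls.

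Further down the order, the C-type lectin-like genes clec-67 and clec-60 rose by 1.76 and 1.53. The other SKN-1-dependent transcript of this group, sdz-28, rose by 1.64. his-24, a linker histone gene, had values of 5.75, 5.60 and 5.59 in the controls and 7.19, 7.33 and 7.30 in the treated worms. asah-1 encodes acid ceramidase, which breaks ceramide down in lysosomes, and it went from 7.48, 7.49 and 7.41 to 8.98, 9.01 and 9.04, 2.93-fold higher. Neither gene showed any overlap between groups, and the spread of asah-1 within each group was within 0.1. The infection response gene irg-4 had 5.72, 5.83 and 5.21 in the controls and 7.05, 7.02 and 7.17 in the treated worms, with control 3 below the other controls, and rose by 1.5 ± 0.15. aqp-2, which encodes a water channel, rose by 1.48 and 1.09 in its 2 probe sets. comp-1, known for its role in competition between sperm, rose by 1.46 ± 0.12. The uncharacterised genes F23F12.12 (1.67), F42A9.7 (1.55), K02B12.2 (1.54), K04G2.4 (1.51) and F36A4.2 (1.45) complete the group. For clec-60, comp-1 and F42A9.7 all controls lay below the threshold of the filter and all treated arrays above it. They too were tested only because they were higher with HF.

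**Figure D2:**
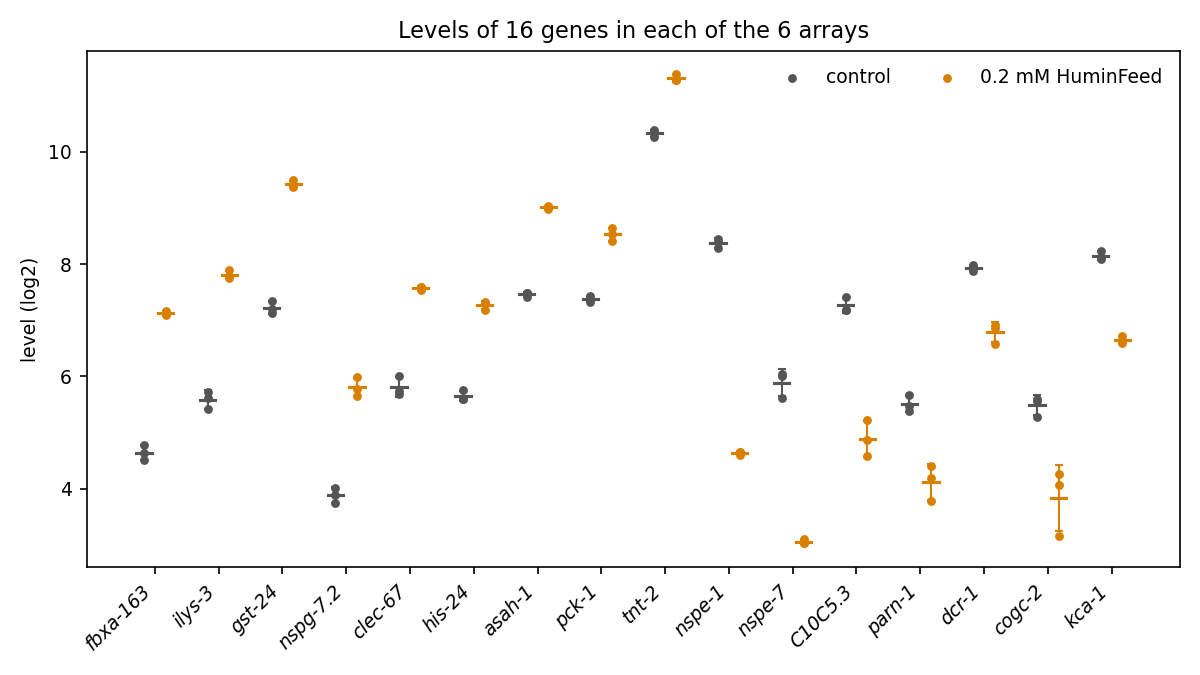
Log2 value of 16 genes in each of the 3 control and 3 treated arrays (points), with the mean and SD of each group (bars). No gene shown has overlapping groups, and the changes of nspe-1 and nspe-7 exceed those of the other genes shown.

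The largest falls were those of 2 members of another peptide family. nspe-1 had 8.44, 8.28 and 8.40 in the controls and 4.60, 4.66 and 4.65 in the treated worms, 13.3-fold lower (adjusted p = 1e-07), and nspe-7 fell 7.13-fold (change -2.83 ± 0.11), with 6.0, 6.05 and 5.62 in the controls and 3.03, 3.10 and 3.04 in the treated worms. The treated values of each gene differed by less than 0.1 and lay below the threshold of the filter, so that both genes were tested only through their controls, and the sizes of these folds are uncertain. C10C5.3 followed with 7.19, 7.42 and 7.19 in the controls and 4.86, 5.22 and 4.58 in the treated worms, 5.21-fold lower. cogc-2, of the oligomeric complex that tethers vesicles at the Golgi, had 5.28, 5.57 and 5.60 in the controls and 4.06, 4.27 and 3.16 in the treated worms. Its treated replicate 3 was lower than the other treated arrays and the SE was correspondingly wide (change -1.65 ± 0.26). All treated values of cogc-2 lay below the threshold of the filter, so that it too was tested only through its controls. The kinesin cargo adaptor gene kca-1, needed to place the meiotic spindle in the oocyte, had 8.09, 8.12 and 8.24 in the controls and 6.60, 6.72 and 6.64 in the treated worms, and both of its probe sets fell (-1.5 and -1.30).

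Below these in size stood genes of chromosome and RNA handling. cin-4, related to topoisomerase II, fell by 1.46 ± 0.17, and parn-1, which encodes the exonuclease that trims the 3′ ends of piRNAs, fell by 1.38 ± 0.15. chd-1, a chromodomain helicase gene, fell by 1.30 ± 0.07. Control values of ced-9, the worm's Bcl-2-like inhibitor of cell death, were 5.59, 5.56 and 5.54 against 4.02, 4.17 and 4.40 with HF, a change of -1.37 ± 0.09. fli-1, the flightless homologue that binds actin, fell by 1.28 ± 0.11. Outside the nucleus, the bestrophin channel gene best-24 fell by 1.42, with 7.05, 7.05 and 6.64 in the controls and 5.29, 5.52 and 5.68 in the treated worms, and phat-8, a gland gene of the pharynx, fell by 1.33. clec-266 (-1.44) and the F-box gene fbxa-192 (-1.35) fell. Of the tested members of their families, 29 of 41 C-type lectin-like genes and 24 of 47 F-box genes rose, while 220 and 310 are on the array. smrd-1 (-1.33) and the uncharacterised genes C09E7.8 (-1.37), Y54G2A.19 (-1.37) and W02G9.4 (-1.38) fell too. All treated arrays of cin-4, ced-9, fli-1, clec-266, fbxa-192, C09E7.8 and this probe set of W02G9.4 lay below the threshold of the filter. These were tested only through their controls, and the sizes of their falls are uncertain. The other probe set of W02G9.4 fell by 1.35, with 6.36, 6.23 and 6.43 in the treated worms.

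**Figure D3:**
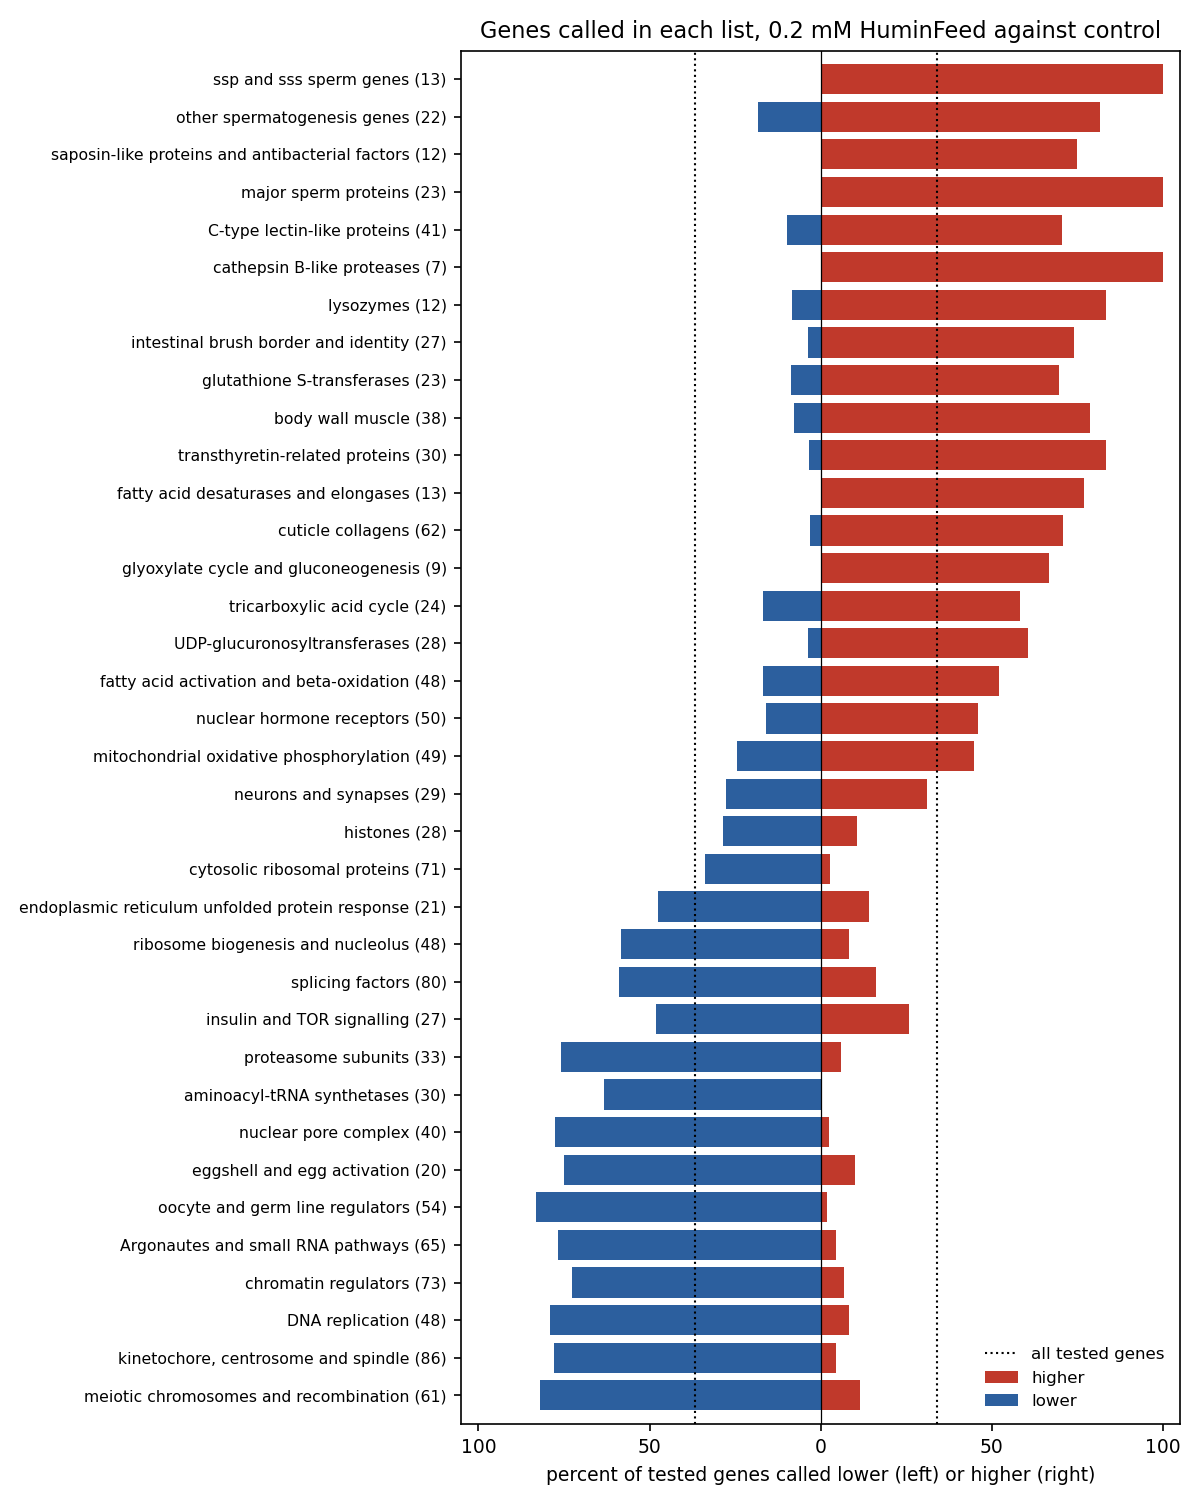
For 36 gene lists, the percent of tested genes that fell (left) or rose (right) at an adjusted p under 0.05. Dotted lines mark the shares over all 7141 genes, 36.7% lower and 34.0% higher, and the lists are ordered by median change, with meiosis and spindle genes at the lower end and sperm genes at the upper end.

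Genes of chromosome segregation, meiosis and replication were mostly lower. Of 61 tested genes of meiotic chromosomes and recombination 50 fell and 7 rose (median change -0.48, against -0.02 over all genes). him-10, a kinetochore component, fell by 0.86 ± 0.08. him-17, which couples chromatin to meiotic recombination, fell by 0.94, and zhp-2, a RING finger protein gene of meiotic chromosomes, fell by 0.93. htp-1, a chromosome axis component, did not pass the test (0.04). In the kinetochore, centrosome and spindle list 67 of 86 genes fell and 4 rose (median -0.45). smc-6, of the SMC5/6 repair complex, had 8.35, 8.31 and 8.32 in the controls and 7.16, 7.20 and 7.38 in the treated worms, and dpy-26, a condensin subunit that also serves dosage compensation, fell by 1.07 ± 0.10. bmk-1, the kinesin-5 motor, fell by 0.91 ± 0.06. Among DNA replication genes 38 of 48 fell and 4 rose (median -0.42), including div-1 of DNA polymerase alpha (-0.94), top-2 (-0.93) and the clamp loader gene rfc-3 (-0.90), whereas the primase subunit pri-2 had -0.06 and did not pass.

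Cell cycle regulators followed the same direction. Of 63 genes of cyclins, kinases and checkpoints 48 fell and 3 rose (median -0.36). The cyclin A gene cya-1 had 8.08, 8.18 and 8.33 in the controls and 7.07, 7.01 and 7.30 in the treated worms, with every treated array lower. cdk-11.2 fell by 0.92 ± 0.09, and emb-30, a subunit of the anaphase-promoting complex, fell by 0.84 ± 0.09. The treated values of cdk-11.2 lay below the threshold of the filter, so that it was tested only through its controls. The autophagy and cell death gene bec-1, also in this list, had -0.04 and did not pass. By shared name stem, all 8 tested mcm genes, which encode the replicative helicase and its loading factors, fell (median -0.49), as did 12 of 14 cdc genes.

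Chromatin and small RNA genes were lower as well. Of 73 chromatin regulators 53 fell and 5 rose (median -0.42). met-2, which methylates lysine 9 of histone H3, had 8.09, 8.17 and 8.07 in the controls and 7.09, 7.23 and 7.04 in the treated worms, and set-14 (-0.97) and rnf-1 (-0.92) fell. Of 65 genes of Argonautes and small RNA pathways 50 fell and 3 rose (median -0.38). dcr-1, the worm's only Dicer, which cuts double-stranded RNA, had 7.88, 7.95 and 7.98 in the controls and 6.86, 6.91 and 6.58 in the treated worms, 2.22-fold lower. Its double-stranded RNA-binding partner rde-4 fell by 1.07 ± 0.06. The microRNA Argonaute gene alg-2 had 0.00 and did not pass. Of 28 histone genes 8 fell and 3 rose (median -0.04). his-74 (-0.86) and his-67 (-0.68) fell while his-24 rose. Copies of core histone genes are nearly identical and their probe sets share signal.

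More genes of nuclear transport, transcription and splicing fell than rose. Of 40 nuclear pore and transport genes 31 fell and 1 rose (median -0.34), with npp-14 at 8.40, 8.45 and 8.34 in the controls and 7.42, 7.29 and 7.46 in the treated worms. npp-19 (-0.82) and ran-2, which encodes the GTPase activator of Ran (-0.86), fell, while the importin beta gene imb-1 had 0.01 and did not pass. In the RNA polymerase II list 23 of 46 fell and 6 rose, among them the TATA-binding protein gene tbp-1 (-0.93) and the elongation factor gene spt-5 (-0.90). Of 80 splicing factors 47 fell and 13 rose (median -0.27), including mog-7 (-0.95), the RNA helicase gene mog-5 (-0.86) and the SR protein gene rsp-1 (-0.85). The cyclophilin gene cyn-13 had 0.00 and did not pass.

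Protein synthesis did not move as a block. Ribosome biogenesis genes fell in 28 of 48 cases and rose in 4 (median -0.26), with nol-10 (-0.85) and utp-20 (-0.85) of the small subunit processome. Of 30 aminoacyl-tRNA synthetase genes 19 fell and 0 rose (median -0.32), led by hars-1, which charges the histidine tRNA (-0.74 ± 0.09). Of the cytosolic ribosomal protein genes, 45 of 71 did not pass, 24 fell and 2 rose, and their changes ran from -0.41 to 0.47 (median -0.04). The sign of that median turned when arrays were centred on the tested probe sets. Among them the paralogues rpl-11.1 and rpl-11.2 passed in opposite directions, with 13.45, 13.44 and 13.47 in the controls and 13.10, 13.15 and 13.01 in the treated worms for rpl-11.1, and 12.04, 11.97 and 11.93 against 12.44, 12.43 and 12.48 for rpl-11.2. rpl-11.1 fell and rpl-11.2 rose, without overlap. Of 38 translation factors 17 fell and 4 rose (median -0.10, also turned by centring). eif-3.H (-0.76) and the cap-binding ife-5 (-0.82) fell and the elongation factor gene eef-1A.2 rose (0.69 ± 0.08). The treated values of ife-5 lay below the threshold of the filter, so that it was tested only through its controls.

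Protein degradation genes split by machinery. Proteasome subunit genes fell in 25 of 33 cases and rose in 2 (median -0.31), led by the core subunit genes pas-6 (-0.72 ± 0.06) and pas-4 (-0.63 ± 0.07) and by rpn-3 of the regulatory lid (-0.60 ± 0.06), whereas the ATPase gene rpt-6 had 0.02 and did not pass. Ubiquitin enzyme genes fell in 28 of 50 cases and rose in 11. Within them the Skp1-related genes differed, since skr-13 and skr-8 rose by 0.88 and 0.83 and skr-2 fell by 0.83. F-box genes leaned the other way, with 24 of 47 tested higher and 11 lower (median 0.27), although 310 are on the array and most were not tested. Protease genes of the gut were higher: all 9 tested aspartyl proteases and all 7 tested cathepsin B-like proteases rose, with cpr-3 at 7.73, 7.73 and 7.71 in the controls and 8.81, 8.83 and 8.79 in the treated worms and asp-14 up by 0.73 ± 0.07.

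Germ cell products went in opposite directions. Of 54 oocyte and germ line regulators 45 fell and 1 rose (median -0.38), and the mean value of the tested genes on this list was 9.56 to 9.59 in the control arrays and 9.19 to 9.21 in the treated arrays. glh-3, a Vasa-like helicase gene of the P granules, fell by 1.04 ± 0.07, and the RNA-binding protein genes puf-11 (-0.77) and puf-8 (-0.76) fell. Eggshell and egg activation genes fell in 15 of 20 cases (mean value 10.85 to 10.90 against 10.54 to 10.59), among them chs-1, which makes the chitin of the eggshell (-0.73 ± 0.05), and egg-2, of the oocyte surface (-0.81 ± 0.06). The exception among its named genes was spe-11, a protein that sperm bring into the egg, which rose by 0.96 ± 0.14. Yolk protein genes did not follow, since 4 of the 5 vit genes did not pass, as with vit-2 (0.01 ± 0.08) and vit-6 (0.01 ± 0.06), and vit-1 fell by 0.29 ± 0.08. In whole worms fewer cells of a type and less RNA per cell cannot be told apart.

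Sperm genes were higher. Each of the 23 tested major sperm protein genes and each of the 13 tested ssp and sss genes rose, with mean values of 11.68 to 11.74 in the controls and 12.22 to 12.27 in the treated arrays for the first and 6.45 to 6.50 against 7.44 to 7.53 for the second. Members of these families are nearly identical and share probe signal, so the counts are not of independent genes. ssq-2 had 5.86, 5.83 and 5.65 in the controls and 7.16, 7.14 and 7.40 in the treated worms, and msp-49 rose by 0.85 ± 0.06. Of 22 other spermatogenesis genes, a list that also holds the nspd peptide genes, 18 rose and 4 fell, with the mean value between 7.16 and 7.26 in the controls and between 7.75 and 7.80 with HF, and 47 of this kind are on the array. spe-46 rose by 1.09 ± 0.12 and spch-1, a sperm chromatin gene, by 1.06 ± 0.07. The members that fell, named here after their values were seen, were spe-39 (-0.94 ± 0.08), a vesicle trafficking gene, spe-44 (-0.63 ± 0.05), a transcription factor gene of early spermatogenesis, spe-5 (-0.49) and spe-48 (-0.43). Whether the share of worms or of germ cells at the sperm stage differed between groups was not tested.

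Muscle genes rose together. In the body wall muscle list 30 of 38 tested genes rose and 3 fell (median 0.40), and the mean value was 9.12 to 9.14 in the controls and 9.51 to 9.53 with HF. dim-1, an immunoglobulin-domain protein gene of muscle attachment, had 9.11, 9.06 and 8.99 in the controls and 10.26, 10.16 and 10.25 in the treated worms. The troponin T gene tnt-2 had 10.33, 10.27 and 10.39 in the controls and 11.27, 11.27 and 11.38 in the treated worms and the tropomyosin gene lev-11 rose by 0.88 ± 0.05. No array of one group reached the other group in dim-1 or tnt-2. pat-10, which encodes troponin C, had 0.08 and did not pass. The myosin heavy chain gene unc-54, named after its value was seen, rose by 0.65 ± 0.08.

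Neuron genes did not share a direction. Of 29 tested genes of neurons and synapses 9 rose and 8 fell (median 0.02), with a mean value of 7.56 to 7.63 in the controls and 7.60 to 7.62 in the treated arrays, and 110 are on the array. The synaptic vesicle recycling genes unc-26 (synaptojanin, -0.89) and unc-57 (endophilin, -0.73) fell, and rab-3 of synaptic vesicles had 0.01 and did not pass. mec-5, a collagen gene of the matrix around touch neurons rather than of the neurons themselves, rose by 0.70 ± 0.11. Neuropeptide precursors leaned up, with 12 of 26 higher and 5 lower. nlp-7 had 6.13, 6.14 and 6.07 in the controls and 7.06, 7.06 and 7.17 in the treated worms, nlp-47 rose by 0.96 and flp-7 by 0.93. All controls of flp-7 lay below the threshold of the filter, so that flp-7 was tested only because it was higher with HF. Only 5 of 28 pharynx genes were tested, of which 3 fell, including the mitochondrial dynamin gene eat-3 (-0.70), and ifa-1, an intermediate filament gene, rose (0.94). Embryonic specification genes had a mean value of 7.04 to 7.09 in the controls and 7.05 to 7.11 with HF, and 15 of 38 fell while 9 rose.

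Intestinal genes and secreted defence genes were higher. Of 27 tested genes of intestinal identity and brush border 20 rose and 1 fell (median 0.41, mean value 7.58 to 7.60 in the controls and 7.98 to 8.0 in the treated arrays). ifc-1, an intermediate filament gene of the gut lining, rose by 1.2 ± 0.08 and ifb-2, its partner, by 0.85 ± 0.06. Lysozyme genes rose in 10 of 12 cases. lys-3 had 6.37, 6.12 and 6.15 in the controls and 7.57, 7.82 and 7.47 in the treated worms, and lys-10 rose by 1.14 ± 0.07. Against the rest of the family lys-7, a known target of several immune pathways, had 7.48, 7.42 and 7.70 in the controls and 6.77, 6.54 and 6.61 in the treated worms and fell 1.86-fold, again without overlap. Saposin-like and antibacterial factor genes rose in 9 of 12 cases, with spp-18 up by 1.04 ± 0.05 and spp-27 by 0.99 ± 0.13, and caenacins and related peptides in 8 of 12, with cnc-7 up by 0.97 ± 0.06.

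Among immune signalling genes 11 of 22 rose, 2 fell and 9 did not pass. The transcription factor gene zip-10 had 6.03, 5.92 and 5.99 in the controls and 7.28, 7.27 and 7.27 in the treated worms. zip-2, a bZIP factor of the response to blocked translation, rose by 0.88 ± 0.07, and pals-23 rose by 0.86 ± 0.12. tir-1, an adaptor of the p38 pathway, had 5.14, 5.14 and 5.23 in the controls and 4.91, 4.91 and 5.80 in the treated worms, so that treated replicate 3 alone lay above the controls. Its change of 0.03 ± 0.22 did not pass. Members of the C-type lectin-like family rose in 29 of 41 cases and fell in 4, out of 220 on the array. On chromosome IV F56D6.13, clec-67, clec-70 and clec-72, which followed one another among the tested genes, all rose beyond 1.5-fold, by 0.82 to 1.76. Untested genes may lie between them, and related genes may share probe signal.

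Detoxification families rose in part. Glutathione S-transferase genes rose in 16 of 23 cases and fell in 2 (median 0.41). Beside gst-24, gst-22 rose by 0.97 ± 0.07 and the omega-class gene gsto-1 by 0.89 ± 0.08, whereas gst-4, the usual reporter of SKN-1 activity, had 8.18, 8.11 and 8.21 in the controls and 8.10, 8.10 and 8.09 in the treated worms and did not pass. UDP-glucuronosyltransferase genes, which attach sugar acids to foreign compounds, rose in 17 of 28 cases and fell in 1; ugt-44 had 9.81, 9.84 and 9.75 in the controls and 10.88, 11.01 and 10.80 in the treated worms. Short-chain dehydrogenases rose in 13 of 19 cases, led by dhs-3, a protein of intestinal lipid droplets (0.89 ± 0.06). Of 14 cytochrome P450 genes 5 rose and 3 fell, with cyp-25A2 at 0.80 and cyp-31A5 at -0.70, and cyp-35A2, a common xenobiotic marker, at -0.03 without passing. ABC transporters showed no common direction (8 of 25 higher, 10 lower), with pgp-8 up by 1.34 ± 0.14 and wht-2 at -1.06 ± 0.05. Nuclear hormone receptor genes rose in 23 of 50 cases, nhr-8, which acts in xenobiotic and sterol responses, among them (0.70 ± 0.06).

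Oxidant and metal defence genes, like the tested genes as a whole, went in both directions. The cytosolic copper and zinc superoxide dismutase gene sod-1 had 10.71, 10.65 and 10.77 in the controls and 9.97, 9.91 and 10.03 in the treated worms and fell 1.67-fold. The mitochondrial manganese enzyme genes rose, sod-3 with 6.15, 5.99 and 6.14 in the controls and 6.60, 6.79 and 6.84 in the treated worms and sod-2 by 0.24 ± 0.05. The extracellular sod-4 rose by 0.27 ± 0.06 and the peroxisomal catalase gene ctl-2 by 0.66 ± 0.07. Over 21 antioxidant genes 8 rose and 4 fell. Of the metal response genes the zinc transporter genes zipt-2.3 and zipt-2.4 diverged, with 6.49, 6.52 and 6.51 in the controls and 7.87, 7.65 and 7.75 in the treated worms for zipt-2.3 and 7.31, 7.59 and 7.22 in the controls and 6.18, 6.12 and 6.32 in the treated worms for zipt-2.4. Both had groups apart, in opposite directions. The metallothionein gene mtl-2 had 0.01 and did not pass.

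Chaperones also diverged. Small heat shock protein genes rose in 5 of 7 cases, with hsp-25 (0.81 ± 0.06), hsp-43 (0.78 ± 0.07) and hsp-17 (0.71 ± 0.07). Other heat shock and DnaJ genes fell in 18 of 40 cases and rose in 8, led by dnj-11 (-1.03), dnj-23 (-1.0) and stip-1 (-1.14). stip-1 is a splicing factor rather than a chaperone. The heat shock transcription factor gene hsf-1 fell by 0.77 ± 0.10. Genes of the unfolded protein response of the endoplasmic reticulum fell in 10 of 21 cases and rose in 3, including the sensor gene ire-1 (-0.67), the degradation gene sel-1 (-0.61) and the calnexin gene cnx-1 (-0.52), while the disulfide isomerase gene pdi-1 had 0.00 and did not pass.

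Fat and carbon metabolism leaned up. Fatty acid desaturase and elongase genes rose in 10 of 13 cases and none fell. fat-5, a delta-9 desaturase gene, had 6.39, 6.30 and 6.22 in the controls and 7.40, 7.40 and 7.78 in the treated worms, 2.33-fold higher. fat-7, of the same activity, rose by 0.63 ± 0.06 and the delta-6 desaturase gene fat-3 by 0.55 ± 0.05. Activation and beta-oxidation genes rose in 25 of 48 cases and fell in 8, with the acyl-CoA dehydrogenase gene acdh-8 at 0.85 and the enoyl-CoA hydratase gene ech-9 at 0.80. Lysosomal lipase genes lipl-5 and lipl-4 rose by 0.76 and 0.60. pck-1, which commits oxaloacetate to gluconeogenesis, had 7.33, 7.37 and 7.43 in the controls and 8.41, 8.53 and 8.64 in the treated worms, and icl-1, which carries both glyoxylate cycle enzymes, rose by 0.92 ± 0.09. fbp-1, the later gluconeogenic phosphatase gene, had -0.01 and did not pass. In glycolysis the aldolase gene aldo-1 rose by 1.17 ± 0.06 and the hexokinase gene hxk-1 fell by 0.60 ± 0.05. Tricarboxylic acid cycle genes rose in 14 of 24 cases and fell in 4, and vacuolar ATPase genes rose in 9 of 19.

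Some paralogues of energy metabolism and translation differed in their changes. Of 49 oxidative phosphorylation genes 22 rose and 12 fell. The complex III core gene ucr-2.3 had 10.12, 9.96 and 10.10 in the controls and 9.16, 9.31 and 9.32 in the treated worms, while ucr-2.1 and ucr-2.2 rose by 0.73 and 0.78. For subunit b of the ATP synthase asb-2 had 8.70, 8.48 and 8.51 in the controls and 9.42, 9.37 and 9.65 in the treated worms, and asb-1 fell by 0.37 ± 0.05. idhg-1 fell by 0.71 ± 0.06 and idhg-2 rose by 0.33 ± 0.06, both encoding the regulatory subunit of isocitrate dehydrogenase. In succinyl-CoA ligase sucl-1 rose by 0.77 ± 0.07 and sucl-2 fell by 0.29 ± 0.05. eef-1A.1, the partner of eef-1A.2, had -0.05 ± 0.05 and did not pass. The second members ucr-2.1, ucr-2.2, asb-1, idhg-2, sucl-2 and eef-1A.1 were chosen after their values were seen. Whether paralogues differed more often than other genes was not tested. Probe sets of near-identical paralogues can share signal.

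Signalling genes of growth and stress went in both directions. Of 27 insulin and TOR signalling genes 13 fell and 7 rose. aap-1, the adaptor of phosphoinositide 3-kinase, had 8.70, 8.70 and 8.86 in the controls and 7.90, 7.93 and 7.87 in the treated worms, without overlap. TGF-beta and dauer genes passed the test in 4 cases upward and 3 downward of 17, with the SMAD gene daf-14 at 0.56 ± 0.09 and daf-3 at 0.00. Hypoxia response genes rose in 7 of 8 cases, among them gbh-1 (0.64 ± 0.05), sqrd-1 of sulfide oxidation (0.53 ± 0.05) and rhy-1, a regulator of the hypoxia-inducible factor (0.43 ± 0.07). ethe-1, which follows sqrd-1 in sulfide oxidation, rose by 0.66 ± 0.05 and the glutathione reductase gene gsr-1 fell by 0.56 ± 0.05. Of 25 methionine and one-carbon cycle genes 12 rose and 5 fell (median 0.12). pccb-1, which encodes the beta subunit of propionyl-CoA carboxylase, rose by 0.70 ± 0.09, while sams-2, which makes S-adenosylmethionine, fell by 0.77 ± 0.07 and the thymidylate synthase gene tyms-1 fell by 0.75 ± 0.06. Osmolyte and water balance genes rose in 11 of 18 cases, including osm-11, a secreted Notch co-ligand (0.71 ± 0.06). Autophagy genes fell in 21 of 49 cases and rose in 13, where the adaptor gene sqst-1 (p62) rose by 0.87 ± 0.06 and vps-37 of the ESCRT-I complex fell by 1.04 ± 0.06. Of 62 tested cuticle collagens 44 were higher and 2 lower, and transthyretin-related genes rose in 25 of 30.

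Most tested genes stood outside these lists. Of 4946 genes in no list 1701 rose and 1753 fell, and of the 2195 in a list 724 rose and 866 fell. Genes known only by a sequence name leaned up, with 944 of 2254 higher (41.9%) and 664 lower (29.5%, median 0.09). Among name stems with at least 8 tested genes, all 11 lec genes, which encode galactose-binding lectins, rose (median 0.54), as did all 9 nspg genes and 9 of 10 clc genes. Carboxylesterase genes (cest) rose in 7 of 11 cases. Downward, 20 of 24 npp, 12 of 13 rpn, 10 of 12 rbm, 5 of 9 ddx RNA helicase and 7 of 9 algn genes of N-glycan assembly fell. The stems were picked after their values were seen and were counted whether or not their genes were in a list. Members of the npp and rpn stems, such as npp-14 and rpn-3, were thus already counted in the nuclear pore and proteasome lists. The long noncoding RNA tts-1, known from long-lived worms, was the only gene of a list of noncoding RNAs. It was also chosen after its value was seen and rose by 1.24 ± 0.07. On chromosome IV nspd-2 and ssp-10, of the sperm lists above, and ssq-1 followed one another among the tested genes and rose by 0.86 to 1.28.

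Chromosomes differed in the direction of change. On the X chromosome 404 of 814 tested genes rose (49.6%) and 94 fell (11.5%), with a median change of 0.20. Over chromosomes I to V 2016 of 6310 genes rose (31.9%) and 2522 fell (40.0%). Chromosome I had the lowest share of rises, 24.8% against 46.7% falls, and chromosome V lay between them with 39.7% rises and 31.6% falls. The pattern was not confined to the gene lists, because among genes in no list 48.3% of the X-linked and 32.5% of the autosomal genes rose. Examples on the X are dim-1, tnt-2, asb-2, rpl-11.2, eef-1A.2, sucl-1, hsp-25 and nlp-7, which rose. Of their paralogues, the autosomal asb-1, rpl-11.1 and sucl-2 fell, while eef-1A.1, the partner of eef-1A.2, did not pass. As said above, asb-1, sucl-2 and eef-1A.1 were chosen after their values were seen. Falls on the X included clec-266 and the carbonic anhydrase gene cah-4 (-1.09 ± 0.08). As background, genes expressed in the worm germ line are rare on the X chromosome. The part of germ line expression in this difference was not tested.

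**Figure D4:**
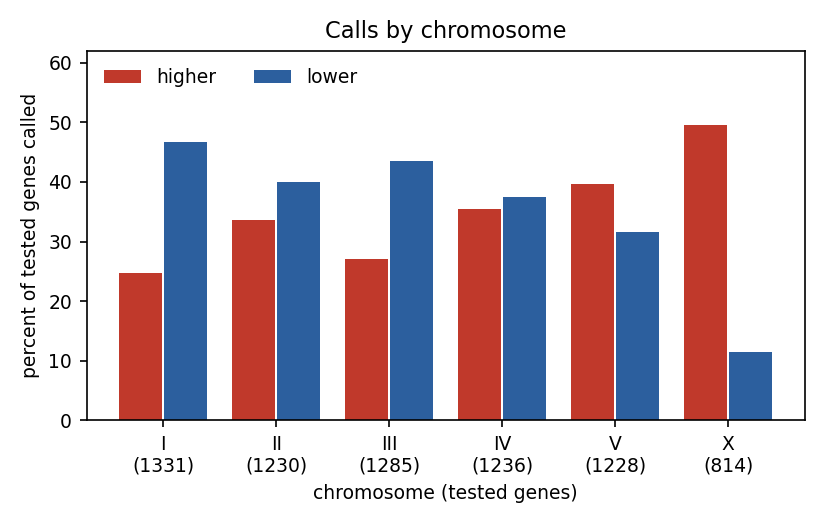
Percent of tested genes on each chromosome that rose or fell at an adjusted p under 0.05 with 0.2 mM HF at 3 days. The X chromosome has the highest share of rises, 49.6%, and the lowest share of falls, 11.5%, and chromosome I has the highest share of falls, 46.7%.

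The 10-fold higher dose was set against 0.2 mM at the same age to ask which of these changes grew. Between the doses 1199 of 9315 probe sets were higher (12.9%) and 751 lower (8.06%) at 2.0 mM, 20.9% in all, which per gene is 13.5% and 8.32%. The higher count was smaller whichever single array was left out. It was 589 without 0.2 mM replicate 1, 715 without 0.2 mM replicate 2, 616 without 2.0 mM replicate 3 and 1020 without 0.2 mM replicate 3. Of the 281 probe sets that rose beyond 1.5-fold at 0.2 mM, 182 were lower at 2.0 mM than at 0.2 mM, 36 were higher and 63 did not pass. Of the 196 that fell beyond 1.5-fold and were tested here, 166 did not pass, 27 were higher and 3 lower. These sets, and most genes named below, were chosen by their values in the same 0.2 mM arrays, so the direction of their differences between doses follows in part from the choice. Both doses share their control arrays, and the direct test leaves these out.

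Sperm genes were among those lower at the higher dose. All 23 major sperm protein genes were lower at 2.0 than at 0.2 mM, and the list's median change against the control was 0.51 at 0.2 mM and -1.18 at 2.0 mM. The ssp and sss genes had 0.99 and -0.90, with 12 of 13 lower, and other spermatogenesis genes had 0.83 and -0.88, with 18 of 22 lower. F36A4.2 had 5.14, 5.09 and 5.13 in the controls, 6.69, 6.50 and 6.53 at 0.2 mM and 3.12, 3.23 and 3.82 at 2.0 mM, while F22B5.5 had 7.06, 7.0 and 7.08 in the controls, 8.22, 8.05 and 8.10 at 0.2 mM and 4.95, 4.71 and 4.99 at 2.0 mM. Each was thus highest at 0.2 mM, and the 2.0 mM arrays lay below both other groups. dod-3, one of the genes downstream of the transcription factor DAF-16, had 7.90, 7.82 and 7.99 in the controls, 8.90, 8.90 and 8.94 at 0.2 mM and 4.71, 4.12 and 4.98 at 2.0 mM, a difference between doses of -4.31 (limma adjusted p = 3.8e-06). lys-3, with the control and 0.2 mM values given above, had 3.76, 3.69 and 3.67 at 2.0 mM (-3.92 against 0.2 mM). Both followed the same order as the uncharacterised genes. F20G2.5 had a difference of -2.83 between 2.0 and 0.2 mM. At 2.0 mM all arrays of F36A4.2, F22B5.5, dod-3, lys-3 and F20G2.5 lay below the threshold of the filter. These genes were tested between the doses only through the 0.2 mM arrays, where they were high, and the sizes of their differences are uncertain.

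In the other direction nspe-1 had 8.44, 8.51 and 8.64 at 2.0 mM, beside 8.44, 8.28 and 8.40 in the controls and 4.60, 4.66 and 4.65 at 0.2 mM (2.0 minus 0.2 mM 3.89, adjusted p = 2.9e-07). The 2.0 mM arrays were near the controls, and only the 0.2 mM arrays were low. nspe-7 was higher at 2.0 than at 0.2 mM by 2.34 and C10C5.3 by 1.57. All 0.2 mM arrays of nspe-1 and nspe-7 lay below the threshold of the filter, so that both were tested between the doses only through the 2.0 mM arrays. cah-4 had 8.46, 8.42 and 8.60 in the controls, 7.34, 7.31 and 7.56 at 0.2 mM and 9.44, 9.64 and 9.56 at 2.0 mM, so that the doses lay on opposite sides of the controls. lys-10 rose further, with 6.50, 6.72 and 6.67 in the controls, 7.77, 7.75 and 7.77 at 0.2 mM and 9.67, 9.22 and 9.66 at 2.0 mM. Division and oocyte lists held similar medians at both doses, -0.45 and -0.34 for the spindle list and -0.38 and -0.33 for oocyte regulators, with 72 of 85 and 51 of 54 genes not passing the test between doses. The muscle list had 0.40 and 0.41. Cuticle collagens were lower at the higher dose in 22 of 62 cases (0.34 and 0.10), and neuropeptide precursors were higher in 10 of 25 (0.14 and 0.51).

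**Figure D5:**
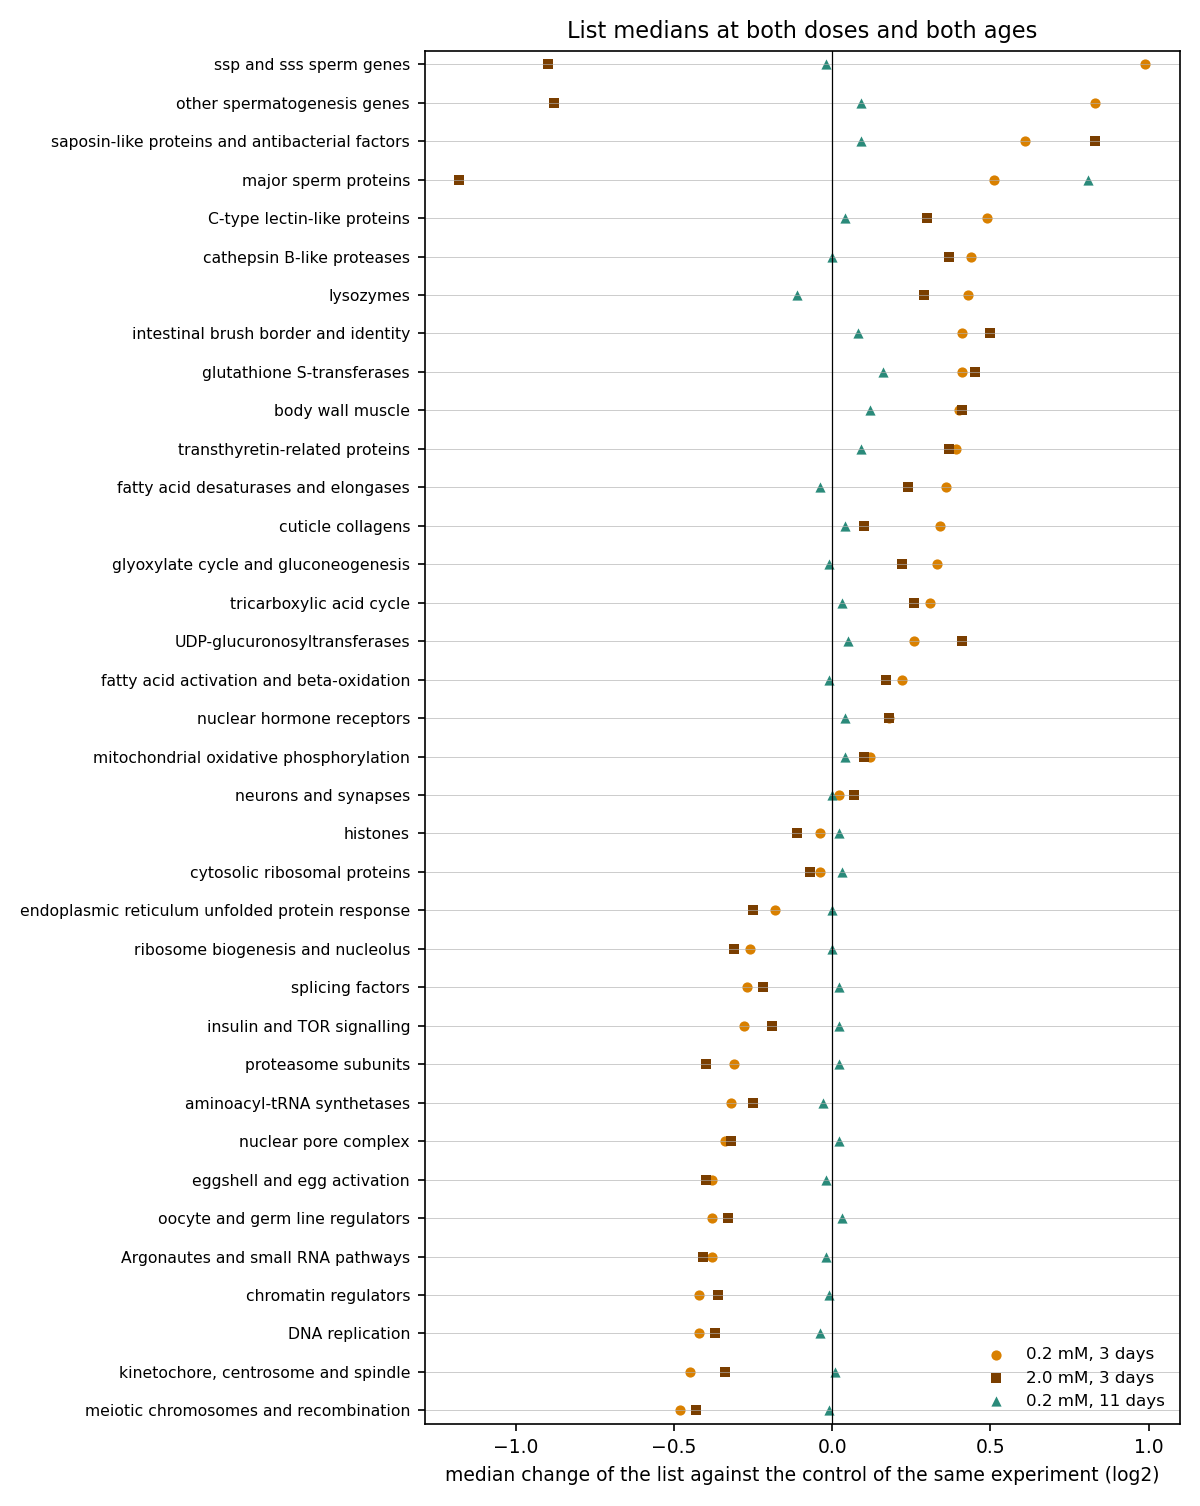
Median log2 change of each gene list against its own control for 0.2 mM at 3 days, 2.0 mM at 3 days and 0.2 mM at 11 days. The sperm lists are above 0 at 0.2 mM and below 0 at 2.0 mM at 3 days, and most lists lie near 0 at 11 days, where major sperm protein genes have a median of 0.81.

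The same dose in worms of 11 days, with controls and arrays of their own, was used to ask how far the changes depended on age. The change at 3 days was higher than that at 11 days for 2147 of 9963 probe sets (21.5%) and lower for 3366 (33.8%), 55.3% in all, by the interaction term of the fit. Of the 281 probe sets that rose beyond 1.5-fold at 3 days 273 had a higher change there, and all 215 that fell beyond 1.5-fold had a lower one. The sets were chosen at 3 days, so the direction of these differences follows in part from the choice. Counted once per gene the shares were 24.1% and 32.5%. Median changes at 11 days were 0.01 for the spindle list, -0.01 for meiosis, 0.03 for oocyte regulators, 0.12 for muscle and 0.08 for the intestine. The major sperm protein genes differed from these lists, with a median of 0.81 at 11 days, where 12 of 23 had a higher change than at 3 days and 11 did not pass. The other sperm lists had -0.02 and 0.09 at 11 days. Some genes lay far below the threshold of the filter in both groups of 11 days. Control and treated means there were 2.12 and 2.13 for comp-1, 2.09 and 2.08 for F36A4.2, 2.2 and 2.17 for F42A9.7 and 2.13 and 2.11 for ifc-1. For such genes a change near 0 at 11 days cannot show whether a response was absent. These 4 are among the 273 rises counted above.

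Single genes with large age differences were of several kinds. ilys-3 had 9.33, 9.44 and 9.30 in the controls and 8.50, 8.39 and 8.40 in the treated worms of 11 days, a change of -0.93 there against 2.23 at 3 days (adjusted p of the interaction = 8.7e-09). C40H1.7 had 6.61, 6.74 and 6.61 in the controls and 8.10, 7.93 and 7.90 in the treated worms at 3 days, and a change of -0.89 at 11 days. The changes of fbxa-163 and gst-24 at 11 days were 0.35 and 0.17. For nspe-1 all arrays of 11 days lay between 2.58 and 2.60, for nspg-7.2 between 2.20 and 2.24, and for C10C5.3 between 3.28 and 3.47. All of these lay below the threshold of the filter. E02C12.6 changed more in the older worms, with 5.28, 5.29 and 5.11 in the controls and 5.87, 6.18 and 5.87 in the treated worms at 3 days and 4.79, 4.64 and 4.61 against 7.57, 7.71 and 7.60 at 11 days. Both changes were upward without overlap. W02G9.4 fell at 3 days and had 7.53, 7.27 and 7.35 in the controls and 8.06, 8.05 and 8.02 in the treated worms at 11 days, the opposite order.

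Probe sets of the same gene mostly moved alike. Of 1534 genes with several tested probe sets 860 had all of them called in one direction, 362 only some, 306 none, and 6 had calls in both directions. These 6 were ZK688.5, jmjd-5, ltah-1.1, pdcd-2, sca-1 and vha-13, and no direction is given for them.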

How the data were processed

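RNA of whole worms (200 ng, integrity numbers 9 or 10) was amplified, labelled with biotin and hybridised to Affymetrix C. elegans arrays, per the labels' protocols. The authors deposited log2 expression values per probe set made with GCRMA, per the submitters' processing notes; its version is not given in the sources used here. GCRMA models background from probe sequence and pulls values of dim probe sets towards a floor, so folds of dim probe sets depend on it. No further normalization was applied. The 3-day and 11-day values appear on slightly different distributions, and only changes against each age's own control were set against each other. Treated and control arrays of 3 days differed in distribution as well. The upper quartile of all values was 7.53 in each control and 7.46, 7.46 and 7.47 in the treated arrays. Probe sets over log2 5 numbered 9165 in each control and 9205, 9223 and 9213 in the treated arrays. The part of this difference in the calls was not tested, and counts after quantile normalization are given below.

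Array controls were left out, and probe sets over log2 5 in at least 3 of the 6 arrays were tested with limma 3.58.1 (lmFit, eBayes, two-sided, Benjamini-Hochberg over all tested probe sets) in R 4.3.3, and with its treat test for changes beyond 1.5-fold. The 3 arrays per group limit the precision (median SE 0.07, median SD 0.0691 in controls and 0.0841 with HF). The third-highest value of the probe sets just inside and just outside the filter was 5.003 and 4.999. Symbols came from the platform annotation, updated through RefSeq: 8869 tested probe sets had 1 symbol, 306 several and 124 none. A gene counts once, by its probe set of the highest mean. The dose was tested between the arrays at 2.0 and 0.2 mM, and age as an interaction over 12 arrays. All 27 array columns were mapped to samples by their titles.

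The comparison, the 85 gene lists and the rule for named genes were chosen with earlier results of these data known. The rule took the 20 largest rises and falls with groups apart, up to 3 called genes and the least changed gene of each list of at least 5 tested genes, the highest called probe sets in controls, all tested vit, mtl, sod, ctl, nspe, ilys and lys genes, and the 5 largest differences each way by dose and age. A selection of these is printed. The arrays were not paired by replicate number in the main fit. Deviations from the group means of treated and control arrays of the same number correlated at -0.0729, 0.009 and -0.0516. Those of unlike number correlated at -0.149 to 0.165. With 3 arrays per group this cannot show whether arrays of the same number were handled together. The procedure was tested on simulated data. Alternatives were no filter, a filter at log2 7, centring on medians, quantile normalization, a variance trend, robust variance, a fit of all 27 arrays, a replicate block and leaving out each array. Centring on tested or on ribosomal protein probe sets was added after seeing the data. Tables and figures were made in Python 3.11.15 with pandas 2.3.3 and matplotlib 3.10.9. No sequences are shown.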

Additional observations from a re-analysis of the deposited data

Results flagged for a closer look

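The change with 0.2 mM HF was tested for a difference between ages by the interaction term of limma. It was higher at 3 than at 11 days for 2147 probe sets and lower for 3366. Among probe sets called at 3 days the largest differences upward, change at 3 days minus change at 11 days, were 3.15 for ilys-3, 2.21 for C40H1.7, 2.14 for fbxa-163, 2.03 for gst-24 and 1.94 for nspg-7.2. Downward they were -3.73 for nspe-1, -3.02 for nspe-7, -2.32 for C10C5.3, -2.20 for E02C12.6 and -2.05 for W02G9.4. In nspe-1 and nspg-7.2 the 11-day arrays of both groups were near the lowest values of the scale.

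The bioB, bioC and bioD hybridisation controls, which no comparison uses, were 0.42 higher in the treated than in the control arrays on the log2 scale, and all treated arrays exceeded all controls in 12 of 14 of these probe sets. The cre controls differed by 0.04. The part of this in the calls was not tested.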

How the results depend on the processing

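The first comparison gave 2834 rises and 3170 falls with no filter, 2159 and 2863 at log2 7, 2729 and 3819 with arrays centred on their medians, 3075 and 3326 after quantile normalization, 2971 and 3636 with a variance trend, 2924 and 3581 with robust variance, 2795 and 3490 with all 27 arrays fitted, and 3380 and 3130 centred on ribosomal proteins. With the replicate number as a block it gave 2870 and 3531. Leaving out 1 array gave 2633 to 3007 rises and 3238 to 3607 falls. Beyond 1.5-fold there were 157 rises and 104 falls with no filter, 348 and 156 after quantile normalization, and 255 and 261 with arrays centred on their medians. Centring on the tested probe sets gave 456 and 99, and centring on ribosomal proteins 366 and 136. The counts beyond 1.5-fold were 223 and 136 with the replicate block, and 158 to 272 rises and 109 to 231 falls without 1 array. Between doses the higher count was 710 with the replicate block and 589 to 1020 without 1 array, and the lower count 572 to 726. For age these ranges were 1938 to 2159 and 3054 to 3365. Of 5608 values of 356 named probe sets under alternatives, 5496 had the same result as in the main fit. These were either called in the same direction in both fits or called in neither. Direction was not compared for those called in neither. A further 25 gained and 86 lost the call, and 1 changed sign with a call in at least 1 of the fits, without treated replicate 3. The change of tir-1 (0.03, not called) ranged from -0.26 without treated replicate 3 to 0.18 without treated replicate 1. The causes were not tested, except that the filter sets how many probe sets are tested. With no filter several list medians (C-type lectin-like, glutathione S-transferase, F-box) lay at -0.01, since most members on the array were then at low values. Signal over background limits the 13249 untested probe sets, of which no statement is made.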
